A study of Mus musculus with 4 samples.

Results

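The T cell receptor signaling and lineage genes are 38 listed entries: the CD3 chains of the receptor complex, the coreceptors Cd4, Cd8a and Cd8b1, other T cell surface receptors, the kinases and adaptors that carry the receptor signal, T lineage transcription factors, and cytokine genes and cytokine receptor genes. They were chosen by gene name, and 37 of the 38 matched a row among the 35869 genes listed. The remaining entry, Ms4a4b_placeholder, is not a gene symbol and matched no row. Of the 37 genes, 33 had at least 1 TPM (length-scaled transcript counts brought to the same total in every sample) in at least 2 of the 4 samples and were tested among 16849 genes, and 4 (Themis, Bcl11b, Satb1 and Il17re) did not reach 1 TPM in 2 samples and are given by their values. RNA-seq was run on CD45+ cells taken with CD45 microbeads from the stromal vascular fraction of the epididymal white adipose tissue (eWAT). The cells came from male WT C57BL/6 mice fed from 8 weeks of age for 12 weeks with a normal diet (ND, 10% of calories from fat) or a high-fat diet (HFD, 60% of calories from fat), with 2 samples per diet and no other treatment. The number of mice behind each library is not given in the sources used here, so the p-values measure the spread between these samples, which may be technical.

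T cells recognize peptides on MHC molecules through a receptor whose own chains have short tails, and the signal enters the cell through the CD3 chains bound to it. The kinase Lck, held at the coreceptors CD4 and CD8, phosphorylates the CD3 tails, the kinase ZAP-70 binds there, and the adaptors LAT and SLP-76 (encoded by Lcp2) gather the enzymes that act next. In adipose tissue T cells live among many macrophages, as CD4, CD8, regulatory and gamma delta T cells, and several of these genes are also used by NK cells, innate lymphoid cells or myeloid cells.

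Most of these genes were lower in HFD as compared to ND. Of the 33 genes tested, 27 fell and 1 (Il7r) rose, as compared to 10.3% of all genes tested that fell and 8.08% that rose. The 5 that were not called were Thy1, Fyn, Lcp2, Prkcq and Lef1. A gene was called when limma gave a Benjamini-Hochberg adjusted p-value under 0.05 over all genes tested and a change of at least 1.5-fold on the log2(TPM + 1) scale, which understates the change of genes with low TPM. Of the 27, 5 (Sh2d1a, Ubash3a, Trat1, Il2 and Il17a) had reached 1 TPM in the ND samples alone, so their place among the tested genes already required a difference. Both HFD samples lay below both ND samples for 31 of the 33 genes tested, as compared to 32.8% of all genes tested. The median log2 fold change was -1.64 over the 33 genes tested, -1.31 over the 37 genes listed and 0.056 over all genes tested. Without ND replicate 1 or without ND replicate 2, limma called 0 of these genes and 0 of all 16849 genes, although 24 and 23 of the 33 were lower at an unadjusted p-value under 0.05, as compared to 12.6% and 11.5% of all genes tested. Without HFD replicate 1, 26 were lower, as compared to 1691 of the 16849 genes (Cd8a, Cd28, Trat1 and Il2 were no longer called, and Prkcq, Lef1 and Thy1 were), and without HFD replicate 2, 28 were lower, as compared to 1582 of the 16849 genes (Thy1 was added). In the fits without an HFD library the spread comes from the ND pair alone, and the single HFD library is assumed to vary as little, so a call gained there does not weigh the distance between the HFD replicates. In bulk RNA, fewer T cells and less of these transcripts per T cell cannot be told apart.

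**Figure D1:**
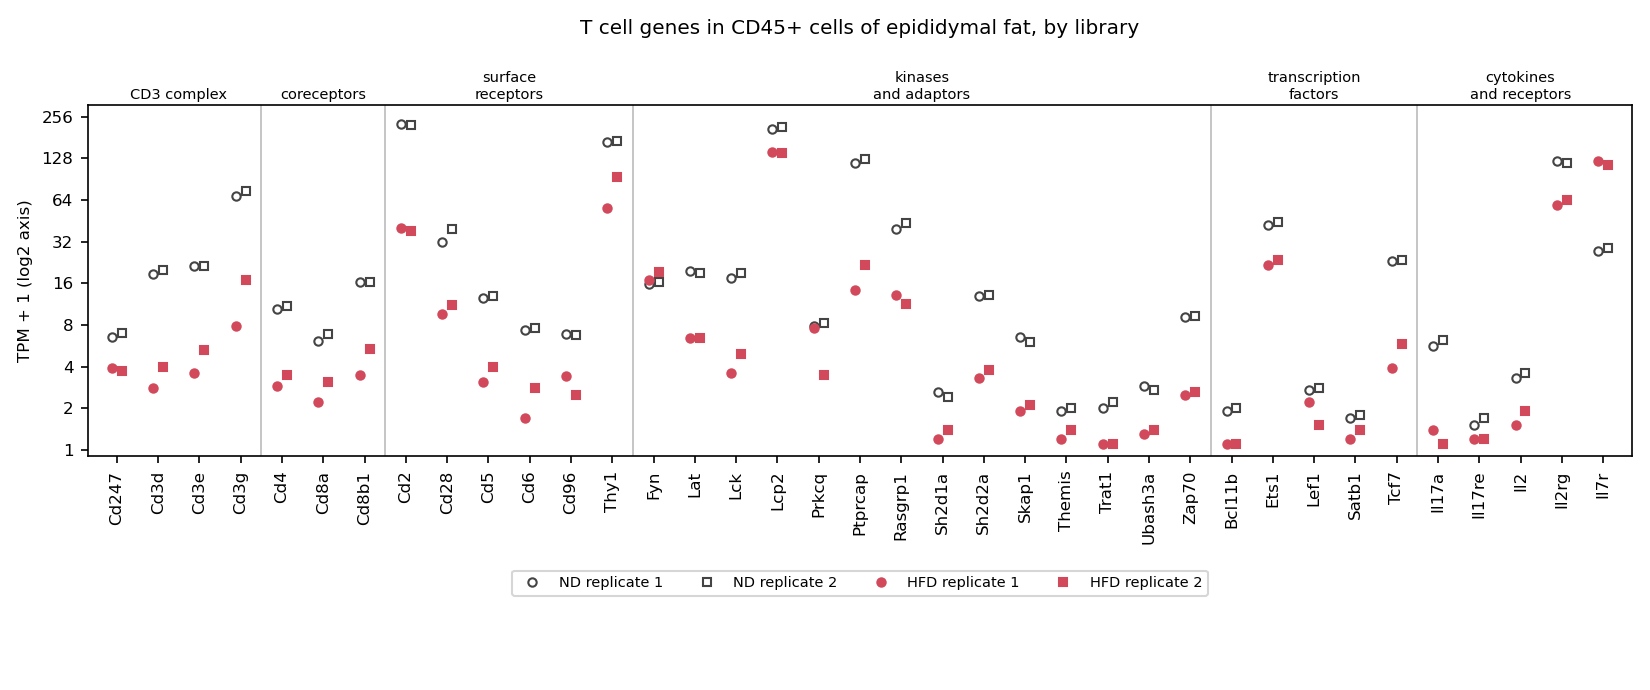
TPM + 1 on a log2 axis for the 37 listed genes in each of the 4 libraries, grouped by role, with open symbols for ND and filled symbols for HFD, circles for replicate 1 and squares for replicate 2. The filled symbols lie below the open ones for 35 of the 37 genes, and above them for Fyn and Il7r.

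The 4 libraries held approximately 37600000 to 46900000 counted reads, estimated from the smallest step of the values of microRNA genes and GENCODE vM21 exon lengths, so that 0.0607 to 0.0711 TPM stood for 1 read per kb. Ptprc, which encodes CD45, stood at 53.7 to 59.4 TPM in the 4 samples. The summed TPM of 7 macrophage markers was 10343 to 10508 in ND and 9470 to 10071 in HFD. Most of this sum was Lyz2 (7827.0 and 7618.1 TPM in ND, 6506.1 and 7124.7 TPM in HFD). Adgre1 (223.7 and 235.2 TPM in ND, 392.3 and 397.1 TPM in HFD) and Cd68 (873.7 and 847.9, 1554.1 and 1574.1) were called higher. Mrc1 (1144.0 and 1193.4 TPM in ND, 676.5 and 636.4 TPM in HFD) was called lower, and 4 of the 7 were not called. The HFD replicates stood further apart than the ND replicates, with a median over genes of 11.6 times the squared counting error as compared to 2.72 times. The summed TPM of 5 spermatid genes was 6460 in HFD replicate 1 and 1734 to 1995 in the other samples, and that of 6 fibroblast genes was 522 and 561 in ND, 2837 in the first HFD library and 5686 in the second. Of the 37 T cell genes, 24 had more TPM in HFD replicate 2 than in the other HFD replicate, 9 had less and 4 had the same, with a median log2 difference of 0.20, as compared to -0.073 over all genes tested. The ND replicates differed by at most 0.30 in log2(TPM + 1) for any of the 37 genes.

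The promoters of the 3 CD3 chain genes with the largest changes, of Il7r, the gene that rose, and of Il17a are printed here, as examples of receptor genes that fell, of the gene that moved the other way and of a cytokine gene that fell. Sequences are from RefSeq for GRCm38.p6 (the assembly called mm10), from 250 bases before to 50 bases after the annotated start, 5′ to 3′ on the gene's own strand, at chr9:44981536-44981835 on the plus strand for Cd3d, chr9:45009562-45009861 on the minus strand for Cd3e, chr9:44980382-44980681 on the minus strand for Cd3g, chr15:9529827-9530126 on the minus strand for Il7r and chr1:20730655-20730954 on the plus strand for Il17a. Capitals mark matches, on either strand, to the motif letters given after the sequences.
Cd3d: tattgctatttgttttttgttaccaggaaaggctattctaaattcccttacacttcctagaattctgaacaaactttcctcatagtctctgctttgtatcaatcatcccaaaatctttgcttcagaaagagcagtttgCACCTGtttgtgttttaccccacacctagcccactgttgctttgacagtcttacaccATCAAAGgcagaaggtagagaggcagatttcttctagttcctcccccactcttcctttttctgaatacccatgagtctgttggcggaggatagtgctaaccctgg
Cd3e: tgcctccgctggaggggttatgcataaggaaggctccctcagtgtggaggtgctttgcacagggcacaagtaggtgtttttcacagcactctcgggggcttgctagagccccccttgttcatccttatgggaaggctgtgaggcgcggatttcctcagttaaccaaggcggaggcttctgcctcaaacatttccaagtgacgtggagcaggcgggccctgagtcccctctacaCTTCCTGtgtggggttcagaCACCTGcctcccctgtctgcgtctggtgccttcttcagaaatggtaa
Cd3g: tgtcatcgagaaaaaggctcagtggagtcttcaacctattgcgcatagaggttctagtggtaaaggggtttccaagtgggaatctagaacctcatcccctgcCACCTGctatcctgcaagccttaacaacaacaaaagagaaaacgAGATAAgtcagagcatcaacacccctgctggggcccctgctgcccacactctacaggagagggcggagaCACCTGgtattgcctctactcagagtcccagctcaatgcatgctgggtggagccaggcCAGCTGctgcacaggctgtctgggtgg
Il7r: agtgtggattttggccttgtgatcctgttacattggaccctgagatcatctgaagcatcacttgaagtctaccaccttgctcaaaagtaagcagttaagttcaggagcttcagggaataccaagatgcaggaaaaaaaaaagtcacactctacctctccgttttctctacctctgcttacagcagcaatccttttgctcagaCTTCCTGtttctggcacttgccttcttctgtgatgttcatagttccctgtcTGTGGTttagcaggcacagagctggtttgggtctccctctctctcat
Il17a: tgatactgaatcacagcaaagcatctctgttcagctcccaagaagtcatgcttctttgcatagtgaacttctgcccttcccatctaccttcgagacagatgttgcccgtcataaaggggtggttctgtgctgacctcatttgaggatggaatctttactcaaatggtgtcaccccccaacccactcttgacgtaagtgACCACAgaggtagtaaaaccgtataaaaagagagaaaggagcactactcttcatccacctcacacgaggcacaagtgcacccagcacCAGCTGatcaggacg

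Promoters were found in RefSeq for 26 of the 37 genes. The letters searched on both strands were CCGGAAG or CAGGAAG for ETS factors, TGTGGT or TGCGGT for RUNX factors, CTTTGAT or CTTTGAA or CTTTGTT for TCF/LEF factors, CAGCTG or CAGGTG or CACCTG for E-box factors, and AGATAA or TGATAA for GATA factors. For 6 of the 26 genes RefSeq gave more than 1 start, so the genes had 38 promoter windows, and the counts are of windows. The ETS letters were in 14 of the 38 windows (36.8%), as compared to 21.3% of 29295 windows of the same length over all genes. The RUNX letters were in 12 (31.6%, as compared to 22.1%), the TCF/LEF letters in 10 (26.3%, as compared to 13.6%), the E-box letters in 19 (50%, as compared to 33.1%) and the GATA letters in 6 (15.8%, as compared to 18.2%). Windows of 1 gene can overlap and are not independent. The Cd3e and Il7r promoters each held 1 match to the ETS letters, although these genes moved in opposite directions. The E-box letters were found in the promoters of Cd3d, Cd3e and Cd3g, and the Cd3g promoter held 3 matches. These are matches of letters in a short window and were not tested further.

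The CD3 complex fell in HFD, with 4 of its 4 genes called. Cd3d, Cd3e and Cd3g, which encode the delta, epsilon and gamma chains, lie together on chromosome 9, where Cd3g (44969572 to 44980431, minus strand) and Cd3d (44981786 to 44987339, plus strand) are transcribed away from each other and Cd3e (44998740 to 45009627, minus strand) follows. Cd3d had 17.6 and 18.9 TPM on ND and 1.8 and 3.0 TPM on HFD. Cd3e stood at 20.3 and 20.4 TPM (ND) as compared to 2.6 and 4.3 TPM (HFD). Cd3g was at 68.0 and 73.8 TPM with ND and at 6.9 and 16 TPM with HFD. For each of the 3 genes HFD replicate 1 was the lowest sample, and both HFD samples lay far below both ND samples. The log2 fold changes were -2.52 for Cd3d (standard error 0.21, limma adjusted p = 0.0106), -2.29 for Cd3e (0.23, limma adjusted p = 0.0132) and -2.63 for Cd3g (0.43, limma adjusted p = 0.0312). Cd247, the gene of the zeta chain, which carries most of the signaling motifs of the complex, had 5.5 and 6.0 TPM on ND and 2.9 and 2.7 TPM on HFD. It fell by 0.83 on the log2 scale (standard error 0.098, limma adjusted p = 0.0179), and lay 1.65 above the mean change of the other 3 chains (standard error 0.61), a difference called in limma (adjusted p = 0.00744) but not when tested by its own spread (adjusted p = 0.0716). The level of Cd247 over that of Cd3e was 0.271 and 0.294 in ND and 1.12 and 0.628 in HFD. The zeta chain is also part of receptors of NK cells, and 7 of 7 NK cell markers fell as well, of which Klre1 reached 1 TPM in ND alone. Of the 5329 exon bases of Cd247 on chromosome 1 (165788681 to 165877277), 3007 overlap Pou2f1 on the opposite strand, which had 1.1 to 1.4 TPM, and whether strand was used in counting is not stated in the sources used here.

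The 3 coreceptor genes fell as well. Cd4, which marks helper and regulatory T cells and lies on chromosome 6 (124864692 to 124888221), stood at 9.5 and 10 TPM (ND) as compared to 1.9 and 2.5 TPM (HFD). Cd8a, the CD8 alpha chain gene, was at 5.1 and 5.9 TPM with ND and at 1.2 and 2.1 TPM with HFD. Cd8b1, the CD8 beta chain gene, had 15.3 and 15.4 TPM on ND and 2.5 and 4.4 TPM on HFD. The diets did not overlap for any of the 3, and HFD replicate 1 was the lowest sample for each. The log2 fold changes in limma were -1.75 for Cd4 (standard error 0.13, adjusted p = 0.00924), -1.31 for Cd8a (0.22, adjusted p = 0.0326) and -1.91 for Cd8b1 (0.25, adjusted p = 0.0212). Without HFD replicate 1 that of Cd8a was -1.07. In limma Cd8a lost its call after quantile normalization (adjusted p = 0.0515). Without a filter Cd8a (limma adjusted p = 0.0683) and Cd8b1 (0.0526) lost it, and with a replicate block all 3 genes did. The ratio of Cd8a to Cd4 was 0.537 and 0.590 in ND and 0.632 and 0.840 in HFD, whereas that of Cd8b1 to Cd4 was 1.61 and 1.54 in ND and 1.32 and 1.76 in HFD, which overlap.

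Among the surface receptors, 5 of 6 fell. Cd2, the adhesion receptor shared by T and NK cells, was the most abundant of the 37 genes in ND, with 226.2 and 222.2 TPM, and had 39.5 and 37.3 TPM in HFD. Its log2 fold change was -2.52 (standard error 0.051, limma adjusted p = 0.00378), with the smallest adjusted p of the 33 genes tested. Cd5 and Cd6, a pair of related receptors that dampen or tune the receptor signal, were both called. Cd5 stood at 11.5 and 12.0 TPM (ND) as compared to 2.1 and 3.0 TPM (HFD), with a log2 fold change of -1.86. Cd6 was at 6.3 and 6.6 TPM with ND and at 0.7 and 1.8 TPM with HFD, with a log2 fold change of -1.77, and its HFD replicates differed more than those of Cd5. Cd28, the main costimulatory receptor, had 31.1 and 38.4 TPM on ND and 8.6 and 10.1 TPM on HFD (log2 fold change -1.78, limma adjusted p = 0.0105), but was at an adjusted p of 0.0552 without HFD replicate 1. Cd96, a receptor of T and NK cells, stood at 5.9 and 5.8 TPM (ND) as compared to 2.4 and 1.5 TPM (HFD), with a log2 fold change of -1.23, and here HFD replicate 2 was the lower one.

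Thy1, a surface glycoprotein of mouse T cells that fibroblasts also carry, did not pass. It was at 167.4 and 171.4 TPM with ND and at 55.5 and 92.5 TPM with HFD, so that both HFD samples lay below both ND samples but stood apart from each other. The log2 fold change was -1.23 (standard error 0.28, limma adjusted p = 0.0585). With all 4 libraries limma called Thy1 lower after quantile normalization (-1.38, adjusted p = 0.0421). It also did so among genes with a mean TPM of at least 5 (-1.23, limma adjusted p = 0.0418). HFD replicate 2, the higher of the HFD samples for Thy1, was also the one with the higher summed fibroblast genes, and the part of these cells in the value of Thy1 was not tested. Without HFD replicate 1 the log2 fold change was -0.87, and without HFD replicate 2 it was -1.59. Thy1 was called in both fits, but their spread is that of the ND pair alone.

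Of the 13 kinase and adaptor genes tested, 10 fell and 3 were not called. The kinases Lck and Zap70 fell and Fyn was not called. Lck had 16.5 and 18.0 TPM on ND and 2.6 and 3.9 TPM on HFD, a log2 fold change of -2.12 (standard error 0.19, limma adjusted p = 0.0116). Zap70 stood at 8.2 and 8.3 TPM (ND) as compared to 1.5 and 1.6 TPM (HFD), with a log2 fold change of -1.86 (standard error 0.088, limma adjusted p = 0.00537). The diets did not overlap for either gene, and the replicates of Zap70 lay within 0.1 TPM of each other in each diet. Fyn, the Src family kinase that acts beside Lck in T cells and is also used by many other cells, was at 14.9 and 15.3 TPM with ND and at 15.8 and 18.3 TPM with HFD. Its HFD samples lay above its ND samples by a small margin, the log2 fold change was 0.16 (standard error 0.098), and limma did not call it (adjusted p = 0.309). The level of Fyn over that of Lck was 0.903 and 0.850 in ND and 6.08 and 4.69 in HFD.

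Among the adaptors, Lat had 18.8 and 17.9 TPM in ND and 5.4 TPM in each HFD sample, and its log2 fold change was -1.60 (standard error 0.072, limma adjusted p = 0.0053). Lcp2, the SLP-76 gene, which macrophages, neutrophils and mast cells also express, had 206.7 and 213.9 TPM on ND and 141.6 and 140.3 TPM on HFD. The diets were well separated for Lcp2 (limma adjusted p = 0.00825), but the log2 fold change of -0.57 (standard error 0.040) stayed just under the limit of 1.5-fold, and it was called after median-ratio scaling (-0.60), quantile normalization (-0.72) and rescaling without the 50 most abundant genes (-0.63). Skap1, an adaptor that links the receptor to integrin adhesion, stood at 5.5 and 5.0 TPM (ND) as compared to 0.9 and 1.1 TPM (HFD), with a log2 fold change of -1.64. Sh2d2a, an adaptor that binds Lck, was at 11.9 and 12.1 TPM with ND and at 2.3 and 2.8 TPM with HFD (log2 fold change -1.88). These adaptors thus spanned log2 fold changes from -0.57 to -1.88. The exons of Lcp2 overlap 4930469K13Rik (2.1 to 4.1 TPM) on the opposite strand, and those of Lck and Lat hold the microRNA genes Mir8119 and Mir7058 on the same strand.

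Ptprcap, whose protein associates with CD45 and with CD4, had the lowest log2 fold change of the 33 genes tested on the log2(TPM + 1) scale. With a pseudocount of 0.1 Ptprcap (-2.87) lay above Il17a (-3.98) and Cd3d (-2.92). It had 118.6 and 126.4 TPM on ND and 13.4 and 20.8 TPM on HFD, and the log2 fold change was -2.80 (standard error 0.24, limma adjusted p = 0.0105). On chromosome 19 (4153604 to 4156751) 1224 of its 1611 exon bases overlap Rps6kb2 on the opposite strand, at 3.5 to 3.9 TPM, and 432 overlap Coro1b on the same strand, at 167.4 to 201.3 TPM. The part of these neighbours in the value of Ptprcap was not tested.

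Rasgrp1, the activator of Ras downstream of diacylglycerol, stood at 38.7 and 42.6 TPM (ND) as compared to 12.1 and 10.3 TPM (HFD), with a log2 fold change of -1.77 and a limma adjusted p of 0.00719. Prkcq, the protein kinase C theta gene, had 6.8 and 7.3 TPM in the ND libraries, 6.6 TPM in the first HFD library and 2.5 TPM in the second. The HFD samples of Prkcq thus stood further apart than the diets did, and it was not called (log2 fold change -0.64, standard error 0.44, limma adjusted p = 0.361). HFD replicate 1 was the sample with the high spermatid genes. Without it the log2 fold change of Prkcq was -1.20, and without HFD replicate 2 it was -0.082, so the value depends on which HFD library is kept. The call gained without HFD replicate 1 rests on the spread of the ND pair alone. Whether the spermatid genes bear on Prkcq was not tested.

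The remaining adaptors were expressed at low levels. Sh2d1a, the SAP gene, was at 1.6 and 1.4 TPM with ND and at 0.2 and 0.4 TPM with HFD. Ubash3a, a phosphatase-like brake on the receptor, had 1.9 and 1.7 TPM on ND and 0.3 and 0.4 TPM on HFD. Trat1, which encodes a transmembrane adaptor bound to the receptor complex, had 1.0 and 1.2 TPM in ND and 0.1 TPM in each HFD sample, approximately 7.55 and 6.56 reads. Limma called the 3 genes lower (log2 fold changes -0.95, -1.05 and -0.93), but each had passed the filter through ND alone, and Trat1 was at an adjusted p of 0.0508 without HFD replicate 1. Themis, needed for T cell development in the thymus, was not tested and stood at 0.9 and 1.0 TPM (ND) as compared to 0.2 and 0.4 TPM (HFD).

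**Figure D2:**
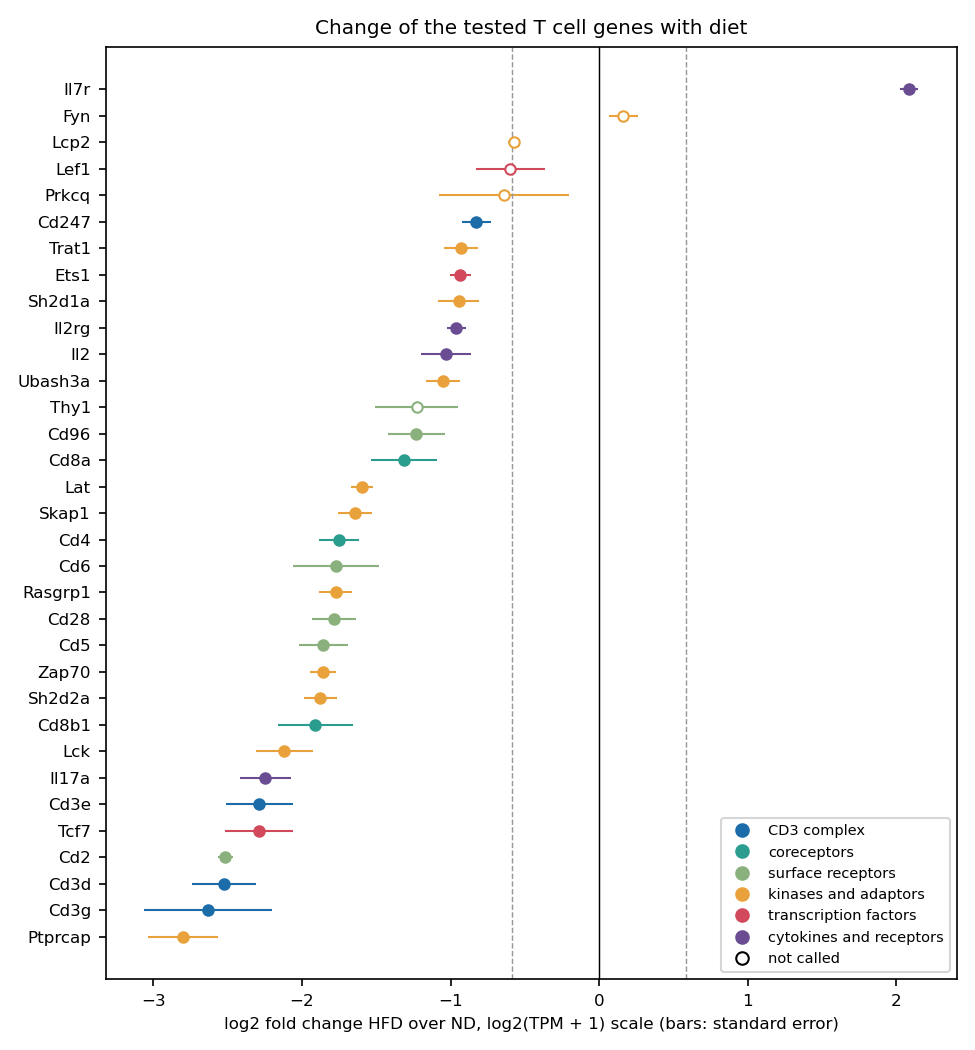
Log2 fold change of HFD over ND on the log2(TPM + 1) scale for the 33 genes tested, with bars for the standard error in limma, colors for the role, filled points for genes called and open points for the 5 not called. Dashed lines mark 1.5-fold, and the values run from -2.80 for Ptprcap to 2.09 for Il7r, with Lcp2 just inside the line.

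Among the T lineage transcription factors, 2 of the 3 tested fell. Tcf7, the TCF-1 gene, which is needed for T cell commitment and for naive and memory T cells, was at 22.1 and 22.4 TPM with ND and at 2.9 and 4.8 TPM with HFD. Its log2 fold change was -2.29 (standard error 0.23, limma adjusted p = 0.0137). The ratio of Tcf7 to Cd3e was 1.09 and 1.10 in ND and 1.12 in each HFD sample. Ets1, a factor of lymphocytes and endothelium, had 41.3 and 43.2 TPM on ND and 20.7 and 22.6 TPM on HFD, with a log2 fold change of -0.93 (limma adjusted p = 0.00929). Lef1, the relative of Tcf7, had 1.7 and 1.8 TPM in the ND libraries, 1.2 TPM in the first HFD library and 0.5 TPM in the second, and was not called (log2 fold change -0.60, standard error 0.23, limma adjusted p = 0.157). Like Prkcq, Lef1 was higher in HFD replicate 1, and without that library its log2 fold change was -0.87, in a fit that takes its spread from the ND pair alone. Bcl11b, the factor that fixes T cell identity, had 0.9 and 1.0 TPM in ND and 0.1 TPM in each HFD sample, and Satb1, a chromatin organizer of thymocytes, stood at 0.7 and 0.8 TPM (ND) as compared to 0.2 and 0.4 TPM (HFD). Neither was tested, and both lay lower in the HFD samples than in the ND samples.

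The cytokine and cytokine receptor genes held the sole increase. Il7r, the gene of the IL-7 receptor alpha chain (chromosome 15, 9505788 to 9530176, minus strand), which maintains naive and memory T cells and innate lymphoid cells, was at 26.4 and 27.8 TPM with ND and at 122.2 and 114.4 TPM with HFD. It rose with a log2 fold change of 2.09 (standard error 0.062, limma adjusted p = 0.00415), and the HFD samples stood at 451% and 422% of the ND mean. The level of Il7r over that of Cd3e was 1.30 and 1.36 in ND and 47.0 and 26.6 in HFD. With every pseudocount, filter and scaling tried, Il7r stayed higher, with log2 fold changes from 1.94 to 2.12, and it was no longer called without ND replicate 1 or 2 (adjusted p = 0.167 and 0.161 in limma). In the same samples 6 of 7 markers of group 2 innate lymphoid cells (ILC2), which use Il7r, fell, among them Il13 (9.9 and 9.8 TPM in ND, 1.8 TPM in each HFD sample) and Il5 (7.6 and 7.9 TPM in ND, 1.0 and 0.9 TPM in HFD). Of these 6, Gata3 reached 1 TPM in ND alone. Il2rg, the common gamma chain that pairs with the IL-7 receptor alpha chain and is present in most leukocytes, had 121.2 and 116.7 TPM on ND and 58.0 and 63.3 TPM on HFD. Il2rg fell by 0.96 on the log2 scale (limma adjusted p = 0.008), and so the 2 chains of the IL-7 receptor moved in opposite directions. Part of the exons of Il2rg overlaps the gene model Gm20489 on the same strand. Which cells carried the Il7r transcripts cannot be read from bulk RNA.

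The cytokine genes themselves were expressed at low levels. Il2, the T cell growth factor, stood at 2.3 and 2.6 TPM (ND) as compared to 0.5 and 0.9 TPM (HFD), with a log2 fold change of -1.03 and a limma adjusted p of 0.0315, and was at an adjusted p of 0.0514 without HFD replicate 1. Il17a, the cytokine of type 17 helper and gamma delta T cells (chromosome 1, 20730905 to 20734496), was at 4.6 and 5.2 TPM with ND and at 0.4 and 0.1 TPM with HFD, or roughly 76.7 and 100 reads for the ND libraries, 7.58 reads for HFD replicate 1 and 1.65 reads for HFD replicate 2. Its log2 fold change was -2.25 (standard error 0.17, limma adjusted p = 0.00929), and the HFD values rest on very few reads. Il17re, the receptor subunit for IL-17C, was not tested, with 0.5 and 0.7 TPM in ND and 0.2 TPM in each HFD sample. Il2 and Il17a passed the filter through ND alone.

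When each gene was set against its ND mean, 19 of the 37 genes had a mean HFD level under 25% of ND, 12 lay between 25% and 50%, 4 (Il2rg, Ets1, Prkcq and Lcp2) between 50% and 100%, and 2 (Fyn and Il7r) above 100%. Among the 19 were Cd3d at 13.2%, Ptprcap at 14.0%, Cd3g at 16.1%, Cd3e at 17%, Cd2 at 17.1%, Tcf7 at 17.3%, Zap70 and Lck at 18.8% each, Cd8b1 at 22.5% and Cd4 at 22.6%. The 19 ran from 5.10% (Il17a), 9.09% (Trat1) and 10.5% (Bcl11b), which rest on few reads, to 22.6%, while the coreceptor gene Cd8a was at 30%. Cd247 at 48.7% stood apart from the other CD3 chains.

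**Figure D3:**
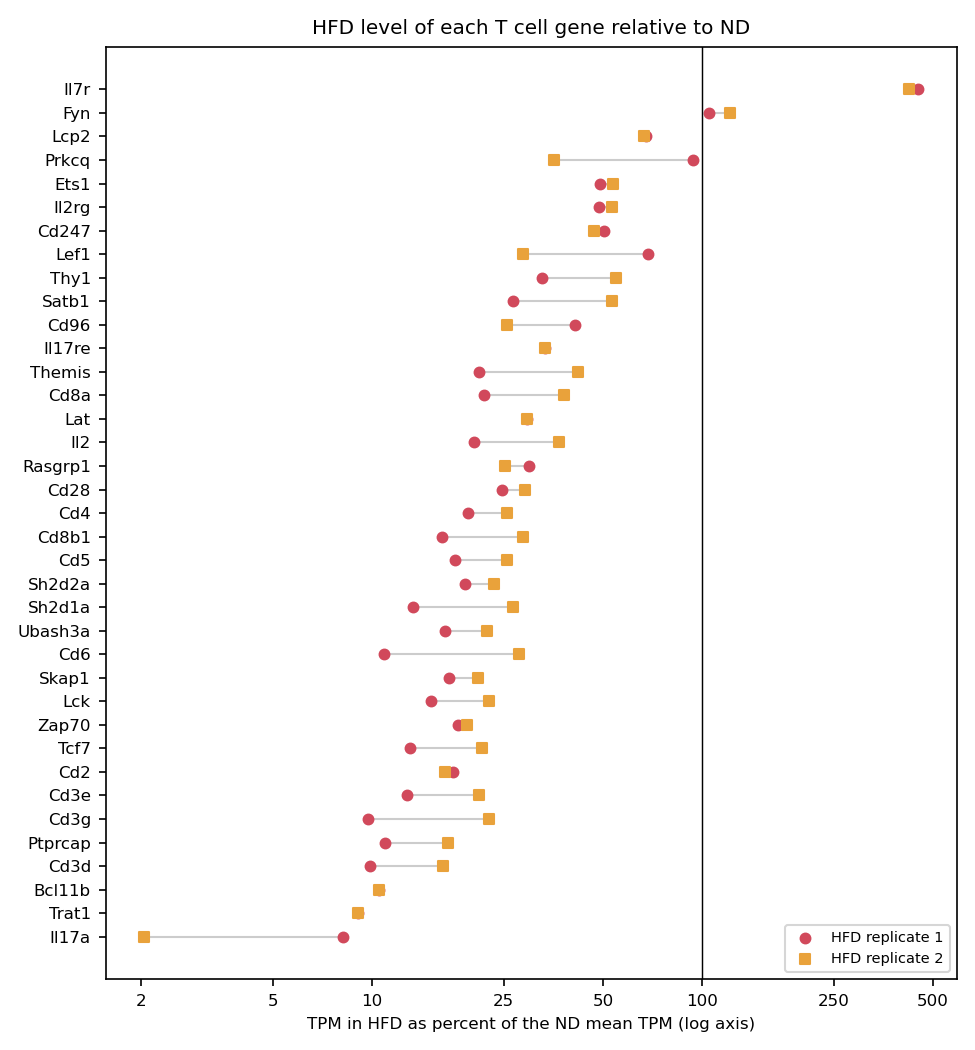
TPM in HFD replicate 1 (circles) and HFD replicate 2 (squares) as a percent of the ND mean, on a log axis, for the 37 listed genes in order of the HFD mean. The line marks 100%, Prkcq and Lef1 lie higher in HFD replicate 1, most receptor genes lie higher in HFD replicate 2, and the point of Il17a in HFD replicate 2 rests on approximately 1.65 reads.

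To ask how the other genes moved as compared to the CD3 chains, the mean log2(TPM + 1) of Cd3d, Cd3e and Cd3g, which changed by -2.48, was subtracted in each sample. Of the 30 other genes tested, limma called 14 higher than the CD3 chains, as compared to 96.4% of all genes tested, and 0 lower, as compared to 0.0594%. In limma none of the 30 was lower at an unadjusted p-value under 0.05. All genes share the error of the CD3 reference, so the spread that limma pools over genes does not come from independent values, and its calls are given here beside those of a second test. A test of each gene by its own spread called 2 of the 30 higher (Cd6 and Thy1) and 0 lower. Of the 16849 genes it called 142 higher and 0 lower. In it 1 of the 30 (Ptprcap) was lower at an unadjusted p-value under 0.05. Cd6 lay 0.71 above the CD3 chains, with a standard error of 0.0083 by its own spread with 2 samples per diet. In limma its standard error was 0.62 (adjusted p = 0.257), and with a pseudocount of 0.1 its difference was 0.33. With a pseudocount of 0.1, which shrinks low genes less, 8 of the 14 were called, as compared to 15664 of all genes tested. These were Cd247, Ets1, Fyn, Il2rg, Il7r, Lcp2, Prkcq and Thy1. With a pseudocount of 1, Trat1, Sh2d1a, Ubash3a, Il2 and Lef1 could not fall as far as the CD3 mean even at 0 TPM. Their place above it was thus set by the scale. In TPM Trat1 stood at 9.09% of ND, below Cd3d at 13.2%, and Sh2d1a (20%) and Ubash3a (19.4%) stood close to Cd3e (17%). Without ND replicate 1 or 2 limma called 1 of the 30 higher, as compared to 1.87% and 1.92% of all genes, and without HFD replicate 2 it called 26, as compared to 16679 of the 16849 genes. The differences from the CD3 chains were 4.57 (standard error 0.49) for Il7r, 2.64 (0.55) for Fyn, 1.91 (0.46) for Lcp2 and 1.65 (0.61) for Cd247 on the log2 scale. Those of Lck (0.36, standard error 0.58), Tcf7 (0.19, standard error 0.57), Cd2 (-0.034, standard error 0.48) and Ptprcap (-0.32, standard error 0.50) were within limma's errors, which does not show that these genes fell by the same factor. By their own spread the standard errors were 0.14 for Lck, 0.082 for Tcf7, 0.41 for Cd2 and 0.065 for Ptprcap, and none of the 4 was called (adjusted p from 0.0582 to 0.942 with 2 samples per diet, in a linear model fitted to each gene and adjusted over all genes). Ptprcap was called lower than the reference in limma with a reference of 6 genes (-0.80, adjusted p = 0.0133). It was also called with a pseudocount of 5 (-0.71, limma adjusted p = 0.0278). The 6 genes were Cd3d, Cd3e, Cd3g, Lck, Lat and Bcl11b. Lck (-2.12), Lat (-1.60) and the untested Bcl11b (-0.83) fell by less than the CD3 mean, so every gene lay lower against this reference. A pseudocount of 5 shrank the changes of Cd3d (-1.66) and Cd3e (-1.59) more than that of Ptprcap (-2.55). With a pseudocount of 0.1 Ptprcap was at -2.87, Cd3d at -2.92, Cd3e at -2.57 and Cd3g at -2.74.

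Most other genes of receptor signaling were not called. Of 30 further genes of the pathway that were listed and tested, 6 fell, 1 rose and 23 were not called, as compared to 10.3% of all genes tested that fell and 8.08% that rose. The median log2 fold change of the 30 was -0.078. The genes that fell included the transmembrane adaptor Sit1 (8.9 and 9.1 TPM in ND, 0.7 and 2.0 TPM in HFD) and the LAT-binding adaptor Grap2 (16.9 and 18.5 TPM in ND, 4.2 and 4.7 TPM in HFD). Nfatc2 and Tespa1 were lower as well, and so was Txk, which reached 1 TPM in ND alone. Broadly expressed genes such as Vav1 (28.4 to 29.0 TPM over the 4 samples), Plcg1 (30.9 to 35.1 TPM) and Grb2 (110.2 to 138.2 TPM) were among the 23 not called. The 10 symbols of T cell receptor constant region genes that were looked up matched no row, so these genes were not analysed here.

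Markers of T cell subsets are given beside these values. Of 8 effector and memory T cell markers, 6 fell, with a median log2 fold change of -2.33, among them Ifng (16.9 and 17.9 TPM in ND, 1.2 and 1.8 TPM in HFD) and the chemokine receptor Cxcr6 (43.4 and 41.2 TPM in ND, 4.1 and 6.2 TPM in HFD). Of 6 markers of naive and recirculating T cells, 4 fell, with a median of -1.10. Of 5 tested markers of type 17 and gamma delta T cells, 4 fell, of which 3, Il23r and Cd163l1 among them, reached 1 TPM in ND alone. Blk (19.3 and 18.4 TPM in ND, 1.8 and 2.5 TPM in HFD) fell and reached 1 TPM in every sample. Blk is not specific to these cells, and the part of B cells in its value was not tested. Sox13 (5.6 and 5.9 TPM in ND, 3.9 and 3.4 TPM in HFD) also reached 1 TPM in every sample and was not called. Of 5 tested markers of regulatory T cells, 4 fell, but Foxp3, the factor that defines them, had 7.5 and 7.3 TPM on ND and 5.0 and 5.6 TPM on HFD and was not called (limma adjusted p = 0.0567). The level of Foxp3 over that of Cd3e was 0.369 and 0.358 in ND and 1.92 and 1.30 in HFD.

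Markers of other cell types moved with the T cell genes, and their part in the genes that these cells share was not tested. Of 7 NK cell markers, 7 fell, and their summed level was 205 and 210 TPM on ND and 43.1 and 34 TPM on HFD. Of 5 tested B cell markers 5 fell (median -1.98), of 4 mast cell markers 4 fell (median -1.42), of 4 neutrophil markers 4 fell (median -1.0), and of 6 dendritic cell markers 2 fell (median -0.74). Klre1 among the NK cell markers, Pax5 among the B cell markers and Cxcr2 among the neutrophil markers reached 1 TPM in ND alone, so that their being tested already required a difference and these counts and medians are descriptions. Ncr1, a defining marker of NK cells, was not at 0 in HFD, with 2.9 and 2.5 TPM. Of 7 macrophage markers 1 fell and 2 rose (median -0.18), of 6 fibroblast genes 4 rose (median 3.28), and the 4 endothelial markers and the 5 spermatid genes were not called. TPM values are relative, so less RNA from T cells and a larger share of RNA from other cells cannot be told apart here.

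**Figure D4:**
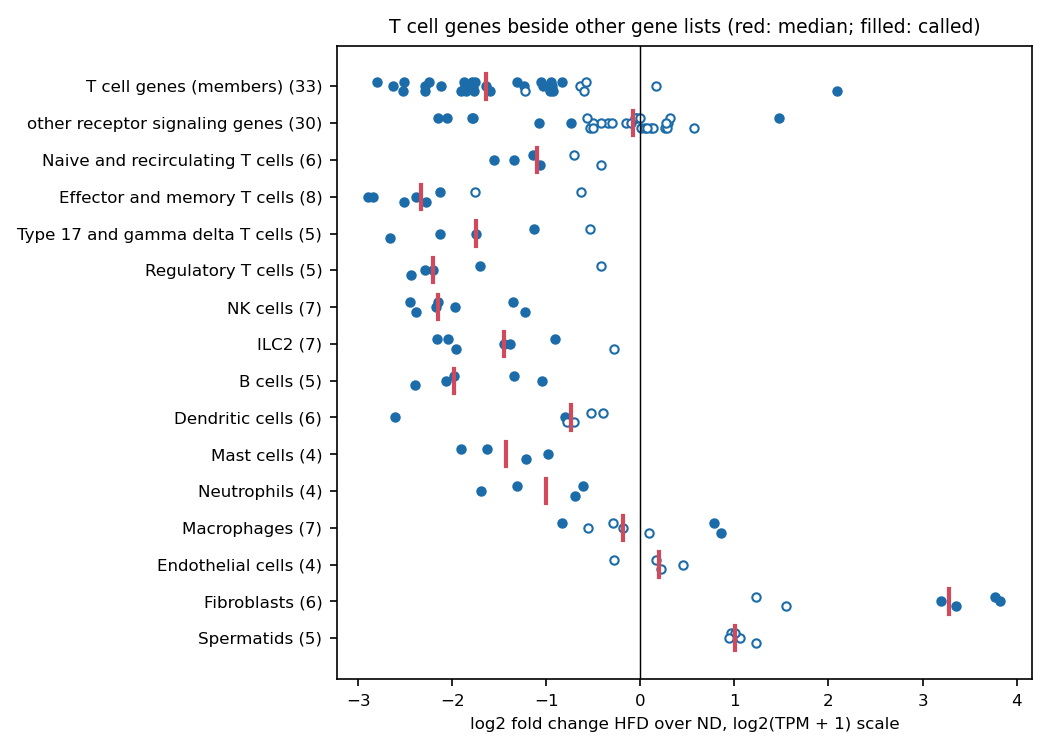
Log2 fold change of HFD over ND on the log2(TPM + 1) scale for the 33 T cell genes tested and for the tested genes of 15 other lists, with the number of genes in parentheses, a red bar for the median, filled points for genes called and open points for genes not called. The median is -1.64 for the T cell genes, -2.15 for NK cell markers, -0.18 for macrophage markers and 3.28 for fibroblast genes.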

How the data were processed

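CD45+ cells from the eWAT of mice fed ND or HFD were measured by RNA-seq in 2 samples per diet. The authors made stranded mRNA libraries, trimmed reads with Trim Galore 0.4.2 and cutadapt 1.9.1, aligned them to mm10 with STAR 2.6.1e, removed duplicates with Sambamba, assigned the remaining reads to genes with featureCounts 1.6.2 (tools from the methods, versions as in the submitters' processing notes) and deposited TPM per gene, printed to 1 decimal. The annotation and the use of strand are not given in the sources used here.

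The TPM values of genes with at least 1 TPM in at least 2 samples were compared as log2(TPM + 1) with limma 3.58.1 in R 4.3.3 (variance trend, Benjamini-Hochberg adjustment over 16849 genes), after a test on simulated data. Called genes had an adjusted p under 0.05 and at least a 1.5-fold change. An exact two-sided permutation test of 2 against 2 samples cannot go below p = 0.333. All listed genes were named, tested or not. The genes, lists and tests were chosen with earlier results of these data known. Approximate reads use steps of 0.0607 to 0.0711 TPM per read per kb, and GENCODE vM21 exon lengths; duplicates had been removed without molecular identifiers. Replicates of a diet differed by more than counting error, and each library was kept as 1 sample. Alternatives were other pseudocounts, filters, scalings, a replicate block, other CD3 references and each sample left out. Figures were drawn with matplotlib 3.10.9. The values of some genes in the comparison lists are not reported here.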

Additional observations from a re-analysis of the deposited data

How the results depend on the processing

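Across 417 combinations of the 33 tested genes with an alternative to the HFD against ND comparison, no log2 fold change changed sign. In 317 the gene stayed as reported, called or not called, and in 91 it lost a call. In 9 (Lcp2, Prkcq, Lef1 or Thy1) it gained one. The number of genes lower in HFD was 27 as reported (10.3% of all genes tested), 17 of 21 tested with a mean TPM of at least 5 (1109 of 10723 genes), 10 with a replicate block (405 of 16849 genes), and from 0 to 28 with 1 library left out. The number higher was 1 as reported (8.08% of all genes tested) and 1 with a replicate block (407 of 16849 genes). The fits without an ND library estimate the spread from the HFD pair alone and called no gene at all. Their smallest adjusted p in limma was 0.167 without ND replicate 1 and 0.161 without ND replicate 2. The fits without an HFD library take the spread from the closer ND pair alone. The replicate block takes 1 of the 2 residual degrees of freedom. Deviations of same-numbered libraries had a correlation of -0.015 across genes, and replicate numbers were therefore treated as names. The median log2 fold change of -1.64 became -2.08 with a pseudocount of 0.1, -0.92 with a pseudocount of 5, -1.78 with a mean TPM of at least 5 and -1.80 after rescaling without the 50 most abundant genes.

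Relative to the CD3 chains, 14 genes were higher as reported (16245 of the 16849 genes), 9 with a replicate block (15779), 8 with a pseudocount of 0.1 (15664), from 1 to 26 with 1 library left out (315 to 16679), and 2 in the unmoderated test (142), which was added after seeing the data. The number lower was 0 as reported (10 of the 16849 genes), 1 with a reference of 6 genes (52) and 1 with a pseudocount of 5 (23). The sign changed for Cd2 with a pseudocount of 0.1 (0.20) and from -0.44 to 0.37 with 1 library left out. It changed for Lck with the reference of 6 genes (-0.12), and for Tcf7 with Cd3e alone (-0.00020) and with 6 genes (-0.29). It changed for Il17a with 6 genes (-0.25), with a pseudocount of 0.1 (-1.24), and from -0.30 to 0.77 with 1 library left out. Lck is itself in the reference of 6 genes. The added Lck, Lat and Bcl11b fell by less than the CD3 mean, so every gene lay lower against that reference. The cause of the other sign changes was not tested. Depth limits the genes below 1 TPM most, since 0.1 TPM of Il17a rests on approximately 1.65 reads.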
